A study of Rattus norvegicus with 30 samples.

Results

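The mevalonate arm of cholesterol synthesis was followed at the transcript level through 8 genes, Acat2, Mvk, Pmvk, Mvd, Idi1, Fdps, Fdft1 and Sqle. They were taken by the platform's gene symbol, from a list drawn up with earlier results of these data known, and are 8 of the 14217 genes that have a probe set with 1 symbol. Together they had 12 probe sets, of which 11 were tested. Primary hepatocytes of male Sprague Dawley rats, purchased frozen, were plated on collagen under a layer of Matrigel, and dosing began on the third day of culture. The wells received the vehicle alone (1% dimethyl sulfoxide), chlorpromazine hydrochloride at 0.8 µM or chlorpromazine hydrochloride at 20 µM, and RNA was taken after 48 h or 24 h. Chlorpromazine is a phenothiazine antipsychotic drug, and its dosing solutions were prepared in dimethyl sulfoxide, per the treatment protocol. Each of the 6 groups had 5 wells with an array of their own, which gave 30 arrays. The wells are described as independent cultures and no separate animals are named, so the p-values measure only the spread between these wells.

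The arm turns acetyl-CoA into squalene and its epoxide. A thiolase joins acetyl-CoA units, further steps lead to mevalonate, a pair of kinases and a decarboxylase turn mevalonate into isopentenyl diphosphate, an isomerase and a prenyl synthase build farnesyl diphosphate, and squalene synthase and squalene epoxidase commit the carbon to sterols. In hepatocytes these genes are known targets of SREBP-2, a transcription factor that is released from the endoplasmic reticulum membrane when its cholesterol is low.

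RefSeq start-site windows in the GRCr8 assembly were found for 5 of the 8 members, Acat2, Mvk, Mvd, Idi1 and Fdps, each from 250 bases before to 50 bases after the start site. The windows of Acat2, Idi1 and Fdps are printed because these members were higher at 20 µM at both times, and that of Mvk because neither of its tested probe sets passed the test. Each reads 5′ to 3′ on the strand of the gene, and capitals mark CCAAT on either strand, the pentamer bound by NF-Y, which acts beside SREBP at many sterol genes. The window of Acat2 lies at chr1:50100590-50100889 (plus strand), that of Idi1 at chr17:66547475-66547774 (minus strand), that of Fdps at chr2:176804767-176805066 (minus strand) and that of Mvk at chr12:47819454-47819753 (minus strand).
Acat2: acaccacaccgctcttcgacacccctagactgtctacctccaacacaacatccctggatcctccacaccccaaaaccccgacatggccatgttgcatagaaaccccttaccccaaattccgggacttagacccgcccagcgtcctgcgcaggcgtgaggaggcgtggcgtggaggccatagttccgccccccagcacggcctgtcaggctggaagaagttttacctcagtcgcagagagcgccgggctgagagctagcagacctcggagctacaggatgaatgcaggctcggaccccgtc
Idi1: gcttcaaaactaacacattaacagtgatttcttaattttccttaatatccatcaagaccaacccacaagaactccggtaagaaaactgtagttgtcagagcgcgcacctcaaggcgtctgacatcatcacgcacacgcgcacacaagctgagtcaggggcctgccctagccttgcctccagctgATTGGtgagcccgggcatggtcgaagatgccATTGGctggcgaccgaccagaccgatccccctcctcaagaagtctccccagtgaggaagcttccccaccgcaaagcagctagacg
Fdps: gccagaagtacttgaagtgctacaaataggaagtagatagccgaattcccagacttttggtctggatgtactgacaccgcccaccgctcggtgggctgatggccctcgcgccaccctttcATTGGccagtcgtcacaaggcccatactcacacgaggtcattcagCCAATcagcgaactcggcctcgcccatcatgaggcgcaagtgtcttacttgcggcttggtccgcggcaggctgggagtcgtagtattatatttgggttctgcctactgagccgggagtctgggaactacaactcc
Mvk: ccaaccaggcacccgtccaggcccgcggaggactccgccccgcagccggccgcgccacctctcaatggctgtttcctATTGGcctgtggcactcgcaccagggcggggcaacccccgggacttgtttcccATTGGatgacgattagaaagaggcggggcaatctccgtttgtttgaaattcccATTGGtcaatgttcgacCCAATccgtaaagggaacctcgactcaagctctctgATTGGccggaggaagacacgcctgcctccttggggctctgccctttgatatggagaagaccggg
CCAAT stood 0 times in the window of Acat2, 2 times in that of Idi1, 2 times in that of Fdps, 5 times in that of Mvk and 2 times in that of Mvd. The GC box GGGCGG was found on either strand 2 times for Acat2, 0 times for Idi1, 1 time for Fdps, 2 times for Mvk and 2 times for Mvd. No match of GGGCGG overlapped one of CCAAT in these windows. The sterol regulatory element pattern TCACNCCAC was found on neither strand of the 5 windows. Of all 33469 windows of the same length, 37.5% held CCAAT, 33.1% held GGGCGG and 1.12% held TCACNCCAC.

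Values are log2 of the scaled MAS5 signal, a one-colour brightness per probe set, so 1 unit is a 2-fold difference and levels of different probe sets are not set against each other. Array medians ran from 379.8 to 448.8 signal units, and the mean correlation of an array with the others of its group over all probe sets from 0.9403 to 0.9523. The 7 hepatocyte markers on the array, among them Alb and Apoa1, lay between 15.06 and 17.04 on all 30 arrays. Replicates are numbered here by the order of array numbers within each group, because the labels give no replicate numbers. Vehicle replicate 2 at 24 h is titled 2 h while its time entry says 24 h. It was grouped by the time entry, and the counts of members and of related genes called at 24 h are given with and without it, while marker values include it. Array numbers follow the same order of groups in each run of 6, so dose and time cannot be told apart from the position of an array in its run. In bulk RNA, fewer cells of a type and less RNA per cell cannot be told apart.

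At 20 µM, Acat2, Idi1, Fdps and Sqle, the thiolase, the isomerase, the prenyl synthase and the epoxidase, rose against vehicle at both times, by 1.20-fold to 1.67-fold, Idi1 at 48 h by 1 of its 2 probe sets. Of the 11 member changes, 6 lay above 0 and 5 below at 48 h, and 10 lay above 0 at 24 h. Mvd rose only at 24 h by the test, Pmvk only at 48 h, and whether their changes differed between the times was not shown (adjusted p = 0.134 for Mvd and 0.772 for Pmvk). Fdft1 fell at 48 h by 1 of its 2 probe sets, and Mvk passed the test at neither time. A gene rose or fell where limma's adjusted p over all 21226 tested probe sets was under 0.05.

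At 48 h, 6 of the 11 member probe sets differed between 20 µM and vehicle, 5 higher and 1 lower, in a comparison that called 26.9% of all tested probe sets. At 24 h it was also 6 of 11, all higher, where 17.4% of all were called. The median log2 change of the members was 0.12 at 48 h and 0.28 at 24 h, beside 0.0092 and -0.0054 over all tested probe sets. The arrays at 20 µM and the vehicle arrays did not overlap for 4 of the 11 at 48 h, against 20.5% of all probe sets, and for 5 of the 11 at 24 h, against 13%. Without the vehicle array titled 2 h the count at 24 h was 4, because Mvd (adjusted p = 0.0697) and the second probe set of Idi1 (adjusted p = 0.0513) no longer passed. The calls over all probe sets at 24 h split into 1935 higher and 1750 lower, and into 2337 higher and 1157 lower with arrays centred on their medians. With quantile normalization, which gives every array the same distribution, they split into 1961 higher and 1764 lower. No called member turned its direction under either scaling tried.

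**Figure D1:**
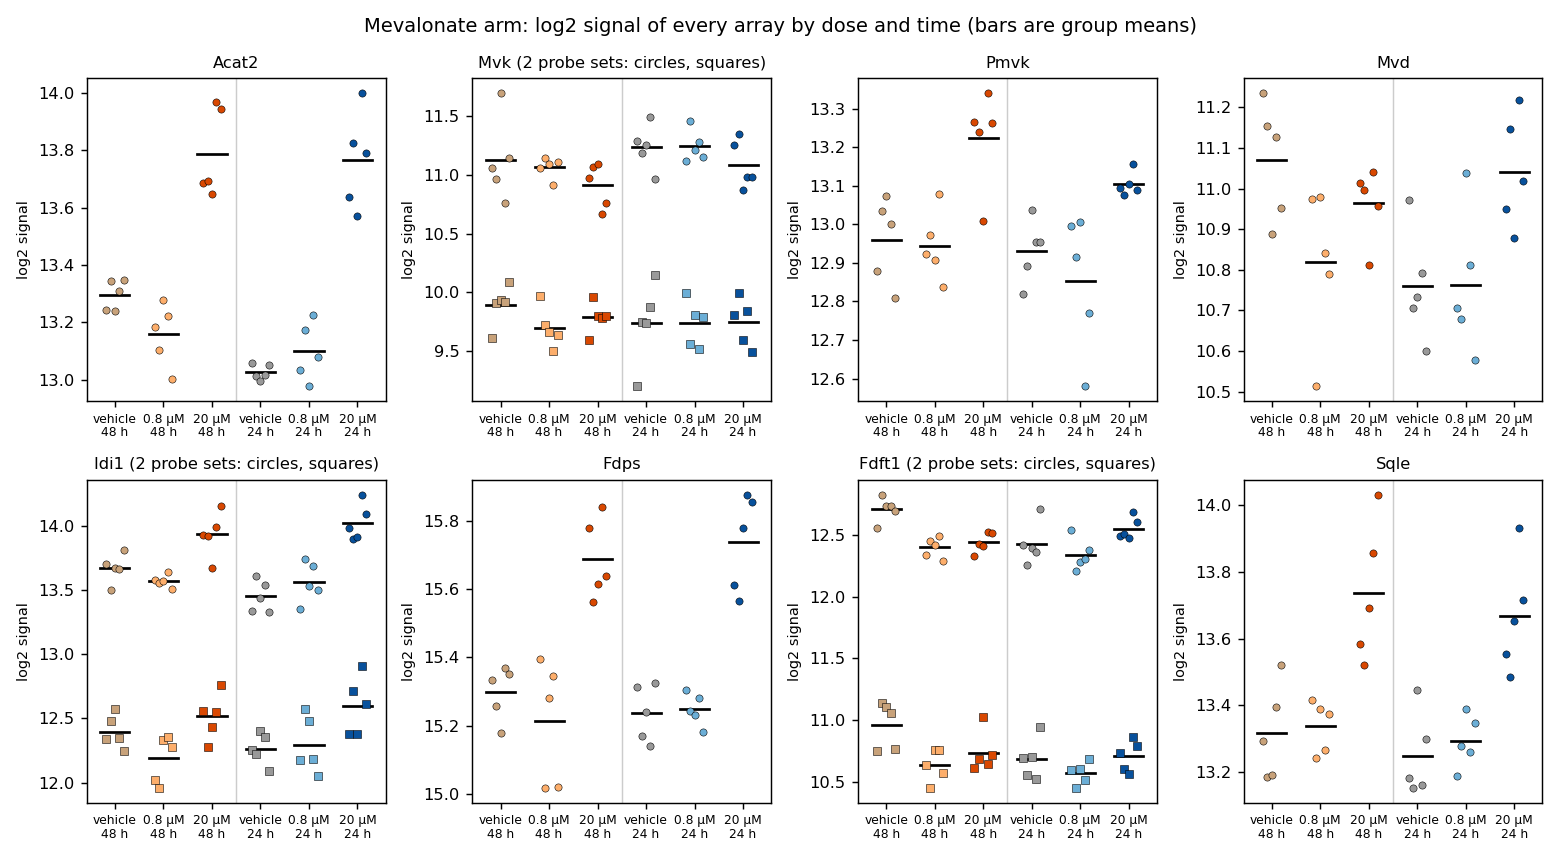
Log2 signal (y axis) of every array for the 11 tested probe sets of the 8 genes, by dose and time (x axis: vehicle, 0.8 and 20 µM, 48 h on the left and 24 h on the right of each panel); points are arrays, bars are means of 5 arrays, and squares mark the dimmer probe set of Mvk, Idi1 and Fdft1. The 5 arrays of Acat2 at 20 µM and 48 h sit between 13.65 and 13.97, above the vehicle arrays at 13.24 to 13.35.

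Acat2 codes for the cytosolic acetoacetyl-CoA thiolase, which makes the first carbon-carbon bond of the pathway. At 48 h its log2 signals were 13.65, 13.68, 13.69, 13.94 and 13.97 at 20 µM, against 13.24, 13.24, 13.31, 13.35 and 13.35 in vehicle. At 24 h they were 13.57, 13.64, 13.79, 13.82 and 13.998 at 20 µM, against 12.998, 13.01, 13.02, 13.05 and 13.06 in vehicle. Every array at 20 µM lay above every vehicle array of its time, and the vehicle arrays stayed within a narrow band at each time. Acat2 was 1.41-fold higher at 48 h (95% interval 1.27 to 1.55, limma adjusted p = 1.13e-06) and 1.67-fold higher at 24 h (1.51 to 1.84, adjusted p = 1.75e-09), the largest change of any member at either time. At 0.8 µM it ran from 13.004 to 13.28 at 48 h and from 12.98 to 13.23 at 24 h, and overlapped vehicle at both times.

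Mvk, mevalonate kinase, had 2 tested probe sets, and neither passed. The brighter one, 1368232_at, had log2 signals of 10.67, 10.76, 10.97, 11.07 and 11.09 at 20 µM and 48 h, against 10.76, 10.97, 11.06, 11.14 and 11.70 in vehicle. The groups overlapped, and the vehicle replicate at 11.70 stood above the rest. Its log2 change was -0.21 ± 0.12 at 48 h (SE, limma adjusted p = 0.226, 95% interval -0.47 to 0.04) and -0.15 ± 0.12 at 24 h (adjusted p = 0.492, -0.40 to 0.10). The dimmer one, 1387119_at, averaged 9.79 ± 0.13 at 20 µM and 9.89 ± 0.18 in vehicle at 48 h, and 9.75 ± 0.20 and 9.74 ± 0.34 at 24 h (SD, n = 5 each). These intervals leave room for a fall or a small rise, so a lack of change was not shown. The third probe set of Mvk, 1375401_at, was not tested because it exceeded the 40th percentile of its array on only 3 of 30 arrays.

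Pmvk, phosphomevalonate kinase, rose at 48 h. Its log2 signals were 13.01, 13.24, 13.26, 13.26 and 13.34 at 20 µM, against 12.81, 12.88, 13.0005, 13.03 and 13.07 in vehicle. All but the lowest array at 20 µM lay above vehicle, and the change was 1.20-fold (95% interval 1.09 to 1.32, limma adjusted p = 0.00382). At 24 h the arrays at 20 µM held a tight band of 13.08, 13.09, 13.09, 13.10 and 13.16, against 12.82, 12.89, 12.95, 12.95 and 13.04 in vehicle. The groups did not overlap there, yet the change of 1.13-fold missed the threshold (limma adjusted p = 0.0866). It passed with arrays centred on their medians (adjusted p = 0.0126) and, separately, in a fit of the compared arrays alone (adjusted p = 0.034). It also passed without replicate 4 of 0.8 µM, which shares the estimate of the spread (adjusted p = 0.0472).

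Mvd, the diphosphomevalonate decarboxylase that yields isopentenyl diphosphate, showed the other pattern. At 24 h it had log2 signals of 10.88, 10.95, 11.02, 11.15 and 11.22 at 20 µM, against 10.60, 10.71, 10.73, 10.79 and 10.97 in vehicle. Only the highest vehicle array reached into the range of the treated arrays. The rise was 1.22-fold (95% interval 1.06 to 1.39, limma adjusted p = 0.0351), and it was lost without any 1 of 7 arrays, vehicle replicates 2, 3, 4 or 5 or 20 µM replicates 2, 4 or 5, with adjusted p from 0.0501 to 0.112. At 48 h the signals were 10.81, 10.96, 10.998, 11.01 and 11.04 at 20 µM, against 10.89, 10.95, 11.13, 11.15 and 11.24 in vehicle. They overlapped, with a log2 change of -0.11 ± 0.09 (SE, limma adjusted p = 0.461, 95% interval -0.30 to 0.08).

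Idi1 codes for the isopentenyl diphosphate isomerase, which balances the 5-carbon units for chain building. Its brighter probe set, 1368878_at, had log2 signals of 13.67, 13.92, 13.92, 13.99 and 14.15 at 20 µM and 48 h, against 13.50, 13.66, 13.67, 13.70 and 13.81 in vehicle. At 24 h the values were 13.90, 13.91, 13.98, 14.09 and 14.24 at 20 µM, against 13.32, 13.34, 13.44, 13.54 and 13.61 in vehicle. The groups were apart at 24 h and overlapped at 48 h through the lowest treated array. Idi1 was 1.20-fold higher at 48 h (95% interval 1.07 to 1.34, limma adjusted p = 0.0109) and 1.49-fold higher at 24 h (1.33 to 1.66, adjusted p = 1.72e-06). Without replicate 5 of 20 µM the call at 48 h was lost (log2 change 0.21, adjusted p = 0.0531). The dimmer probe set, 1388872_at, moved less, with log2 changes of 0.12 ± 0.11 at 48 h (SE, adjusted p = 0.465) and 0.33 ± 0.11 at 24 h (adjusted p = 0.0263), and the call at 24 h was lost without vehicle replicate 2 or 5 or 20 µM replicate 2 or 4, with adjusted p from 0.0513 to 0.113.

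Fdps, farnesyl diphosphate synthase, makes the branch-point isoprenoid that feeds sterols, dolichol, ubiquinone and prenylated proteins. At 48 h its log2 signals were 15.56, 15.62, 15.64, 15.78 and 15.84 at 20 µM, against 15.18, 15.26, 15.33, 15.35 and 15.37 in vehicle. At 24 h they were 15.57, 15.61, 15.78, 15.86 and 15.88 at 20 µM, against 15.14, 15.17, 15.24, 15.31 and 15.33 in vehicle. The treated arrays lay above all vehicle arrays at both times. The difference was 1.31-fold at 48 h (95% interval 1.19 to 1.45, limma adjusted p = 5.25e-05) and 1.42-fold at 24 h (1.28 to 1.56, adjusted p = 2.5e-06).

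Fdft1, squalene synthase, takes farnesyl diphosphate into the sterol branch, and it ran against its neighbours at 48 h. Probe set 1367839_at had log2 signals of 12.33, 12.41, 12.43, 12.52 and 12.53 at 20 µM and 48 h, against 12.56, 12.70, 12.73, 12.74 and 12.83 in vehicle. Every treated array lay below every vehicle array, and the level was 0.83 of that in vehicle (95% interval 0.75 to 0.92, limma adjusted p = 0.00358). Probe set 1389906_at gave -0.23 ± 0.09 on the log2 scale at 48 h (SE, adjusted p = 0.0762), on the same side of 0 but not past the threshold. It passed without vehicle replicate 1 (adjusted p = 0.033), vehicle replicate 5 (0.0357) or 20 µM replicate 3 (0.0179). At 24 h the first probe set had 12.48, 12.50, 12.51, 12.60 and 12.68 at 20 µM, against 12.26, 12.36, 12.40, 12.42 and 12.72 in vehicle. The highest vehicle array exceeded all treated ones, and the log2 change was 0.12 ± 0.07 (SE, limma adjusted p = 0.261); without that array, vehicle replicate 5, it was 0.20 (adjusted p = 0.0358).

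Sqle codes for squalene epoxidase, the first oxygen-requiring and a rate-limiting step of the sterol branch. Its log2 signals at 48 h were 13.52, 13.58, 13.69, 13.86 and 14.03 at 20 µM, against 13.19, 13.19, 13.29, 13.39 and 13.52 in vehicle. At 24 h they were 13.49, 13.55, 13.65, 13.72 and 13.93 at 20 µM, against 13.15, 13.16, 13.18, 13.30 and 13.45 in vehicle. The treated arrays lay above vehicle at both times, at 48 h only just, where the lowest treated array (13.5204) and the highest vehicle array (13.5199) nearly met. Sqle was 1.34-fold higher at 48 h (95% interval 1.19 to 1.51, limma adjusted p = 0.000211) and 1.34-fold higher at 24 h (1.19 to 1.51, adjusted p = 0.000403).

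**Figure D2:**
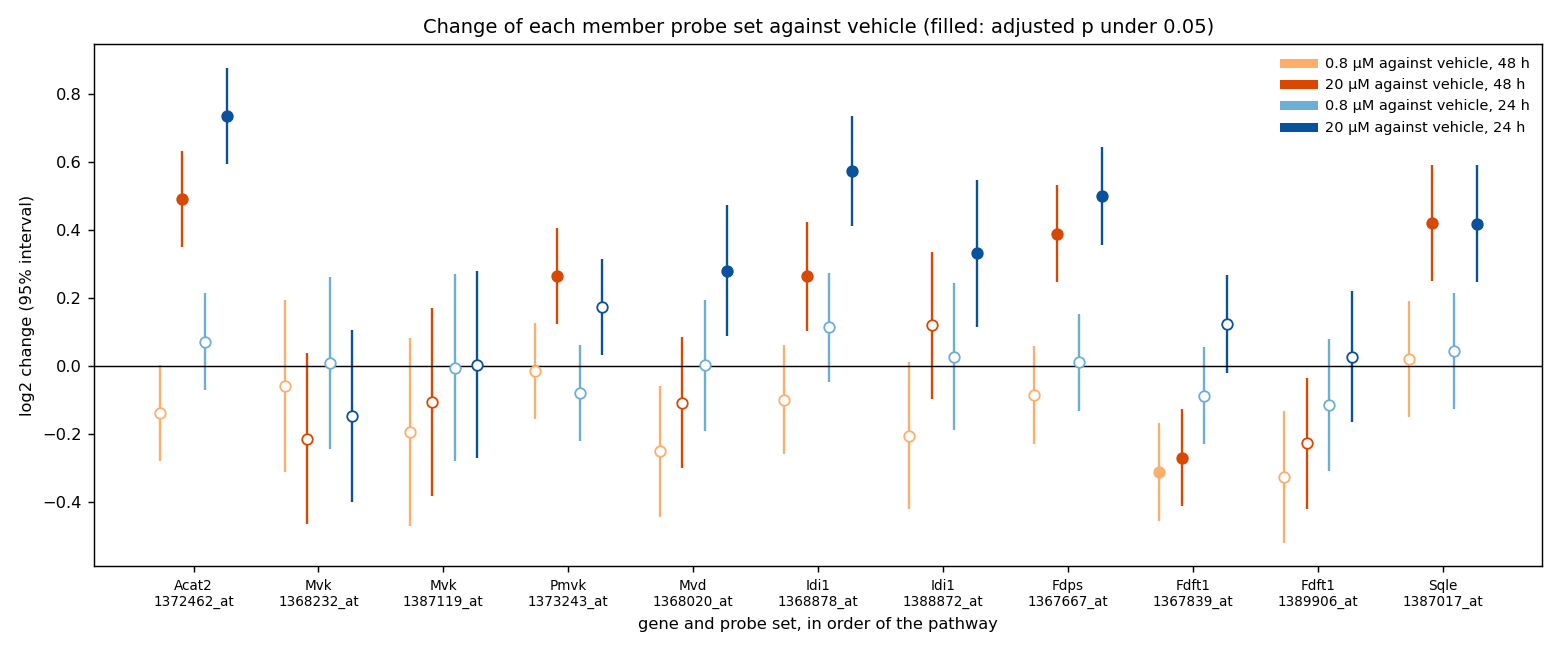
Log2 change against vehicle (y axis, with 95% intervals) of each member probe set in pathway order (x axis), for 0.8 and 20 µM at 48 h and at 24 h; filled points have an adjusted p under 0.05. The intervals of Acat2, Idi1 1368878_at, Fdps and Sqle at 20 µM lie above 0 at both times. Those of both Fdft1 probe sets at 48 h lie below 0 for both doses, with only 1367839_at past the adjusted threshold. The interval of Mvd at 0.8 µM and 48 h also lies below 0, without passing.

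At 0.8 µM the arm showed no rise. At 48 h, 1 of the 11 probe sets differed from vehicle, where 1.81% of all tested probe sets were called, and 10 of the 11 changes lay below 0. That probe set was 1367839_at of Fdft1, with log2 signals of 12.29, 12.34, 12.42, 12.46 and 12.50 at 0.8 µM, against 12.56 to 12.83 in vehicle. It was lower in every treated array, by -0.31 ± 0.07 on the log2 scale (SE, limma adjusted p = 0.015), and the call was lost without replicate 5 of 0.8 µM (adjusted p = 0.0598) and with arrays centred on their medians (adjusted p = 0.0826). The other probe set of Fdft1 changed by a similar size (-0.33 ± 0.09, adjusted p = 0.0695), and Mvd by -0.25 ± 0.09 (adjusted p = 0.204), neither past the threshold. At 24 h, 0 of the 11 probe sets passed limma's test at 0.8 µM, where 0.283% of all were called, and 0 of the 11 had an unadjusted p under 0.05. The count was also 0 without the vehicle array titled 2 h. The 95% interval of the log2 change ran from -0.07 to 0.21 for Acat2 and from -0.13 to 0.22 for Sqle, so small changes were not excluded by these arrays. Over all probe sets, the calls at 0.8 µM and 24 h split into 27 higher and 33 lower. They were 3 higher and 1 lower with median centring, and 30 higher and 38 lower with quantile normalization.

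Set against each other, the doses differed at both times. At 48 h, 6 of the 11 probe sets were higher at 20 µM than at 0.8 µM, where 19.8% of all were called in either direction: Acat2, Pmvk, both probe sets of Idi1, Fdps and Sqle. Acat2 had the largest difference, 0.63 ± 0.07 (SE, limma adjusted p = 2.12e-08). At 24 h, 6 of the 11 were higher, where 11% of all were called: Acat2, Pmvk, Idi1 1368878_at, Fdps, Sqle and Fdft1 1367839_at. Mvd did not pass there (0.28, adjusted p = 0.0519), but did with runs of 6 array numbers as a block (adjusted p = 0.0437) and with median centring (adjusted p = 0.0194). The Fdft1 difference was the weakest of these, 0.21 ± 0.07 (SE, limma adjusted p = 0.0489), and did not hold under 5 of 14 other settings or without any 1 of 23 of the 30 arrays. The call of Pmvk at 24 h was lost without replicate 4 of 0.8 µM (adjusted p = 0.0687), and that of Idi1 1388872_at at 48 h without 20 µM replicate 1, 4 or 5 or 0.8 µM replicate 1 or 2 (adjusted p from 0.0519 to 0.0978). Across vehicle, 0.8 µM and 20 µM, the mean log2 signals of Fdps were 15.30 ± 0.08, 15.21 ± 0.18 and 15.69 ± 0.12 at 48 h, and 15.24 ± 0.08, 15.25 ± 0.05 and 15.74 ± 0.14 at 24 h (SD, n = 5 each). The vehicle and 0.8 µM means lay within their spread of each other, and the 20 µM mean stood apart from both.

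The members also moved with time in the vehicle wells. Between 48 h and 24 h, 3 of the 11 probe sets rose in vehicle, where 8.93% of all were called: Acat2 (0.27 ± 0.07, limma adjusted p = 0.0105), Mvd (0.31 ± 0.09, adjusted p = 0.0328) and Fdft1 1367839_at (0.28 ± 0.07, adjusted p = 0.00785; values are log2 changes ± SE). The vehicle arrays of Acat2 were apart, at 13.24 to 13.35 at 48 h and 12.998 to 13.06 at 24 h. At 20 µM, 0 of the 11 probe sets differed between 48 h and 24 h, where 7.34% of all were called, and at 0.8 µM likewise 0 of the 11, where 4.08% were called; 0 of the 11 had an unadjusted p under 0.05 in either. Acat2 averaged 13.79 ± 0.15 at 48 h and 13.76 ± 0.17 at 24 h in wells at 20 µM (SD, n = 5 each). Without the array titled 2 h the vehicle count stayed at 3, with Acat2 (0.27, adjusted p = 0.0241), Fdft1 (0.24, adjusted p = 0.0372) and Idi1 1368878_at (0.26, adjusted p = 0.0487) past the threshold and Mvd (0.30, adjusted p = 0.0716) not. The call of Mvd was also lost without vehicle replicates 1, 2 or 4 at 48 h or 3 or 5 at 24 h (adjusted p from 0.0659 to 0.0954), and in a fit of the vehicle arrays alone both Mvd (adjusted p = 0.0638) and Fdft1 (adjusted p = 0.051) missed the threshold.

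The difference between the effects of 20 µM at the 2 times was tested directly. The effect at 48 h minus that at 24 h passed for 1 of the 11 probe sets, where 2.72% of all were called: Fdft1 1367839_at, at -0.39 ± 0.10 (SE, limma adjusted p = 0.0234). Its change was -0.27 at 48 h and 0.12 at 24 h. Between the times its signal rose by 0.28 in vehicle and changed by -0.11 at 20 µM (limma adjusted p = 0.00785 and 0.431). The call of the difference was lost without the array titled 2 h (-0.35, adjusted p = 0.0586) and without vehicle replicate 2 at 48 h (-0.36, adjusted p = 0.0513). For Acat2 the difference was -0.25 ± 0.10 (adjusted p = 0.235) and for Idi1 1368878_at -0.31 ± 0.11 (adjusted p = 0.163), neither past the threshold. For Sqle it was 0.0019, with a 95% interval of -0.24 to 0.24. The same difference for 0.8 µM passed for 0 of the 11 by limma, where 0.0424% of all were called. An unadjusted p under 0.05 was seen for 2 of the 11, and the share of all probe sets under that limit was not taken.

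As a summary over the arm, the log2 signals of each member were standardised over the 30 arrays and averaged, with each gene by its brightest tested probe set. At 48 h this mean ran from 0.0058 to 0.27 SD units in vehicle, from -0.81 to -0.26 at 0.8 µM and from 0.22 to 0.96 at 20 µM. At 24 h it ran from -0.79 to -0.42 in vehicle, from -0.81 to -0.35 at 0.8 µM and from 0.42 to 1.44 at 20 µM. The treated arrays at 20 µM were apart from vehicle at 24 h, while at 48 h the lowest of them reached into the vehicle range. At 48 h all 5 arrays at 0.8 µM lay below all 5 vehicle arrays, and at 24 h these groups overlapped. Over the 30 arrays, 21 of the 28 pairs of members had a correlation above 0, with a median r of 0.39 and a range from -0.56 to 0.90. The pair with the highest r was Acat2 and Idi1, and 7 pairs with Mvk were those below 0. With the group means removed, the median r was 0.13 and the range -0.57 to 0.57. All these correlations share arrays and their scaling.

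Probe sets of a gene were compared in the same way. The pair of Fdft1 had r = 0.77 over the 30 arrays and 0.59 within groups, that of Idi1 0.69 and 0.40, and that of Mvk -0.01 and 0.01. The tested probe sets of Mvk thus did not move together on these arrays.

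The genes most like the arm in pattern were ranked by r with its mean over the 30 arrays, among 11361 other named genes with a median r of 0.02. Msmo1, the sterol C4-methyl oxidase, came first (r = 0.94), followed by Cyp51, lanosterol demethylase (0.88), Asns, asparagine synthetase (0.88), Slc16a7, a monocarboxylate transporter (0.86), Sc5d, lathosterol oxidase (0.86), Ugdh, UDP-glucose dehydrogenase (0.84), Slc20a1, a phosphate transporter (0.84), and Apip, an enzyme of methionine salvage (0.84). Of all ranked genes, 11.3% had r over 0.5. With group means removed, r was 0.71 for Msmo1 and 0.65 for Cyp51, and between -0.09 and 0.47 for the other 6 genes. Msmo1 rose by 0.40 ± 0.07 at 48 h and 0.54 ± 0.07 at 24 h at 20 µM (log2 change ± SE, limma adjusted p = 3.13e-05 and 5.49e-07).

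**Figure D3:**
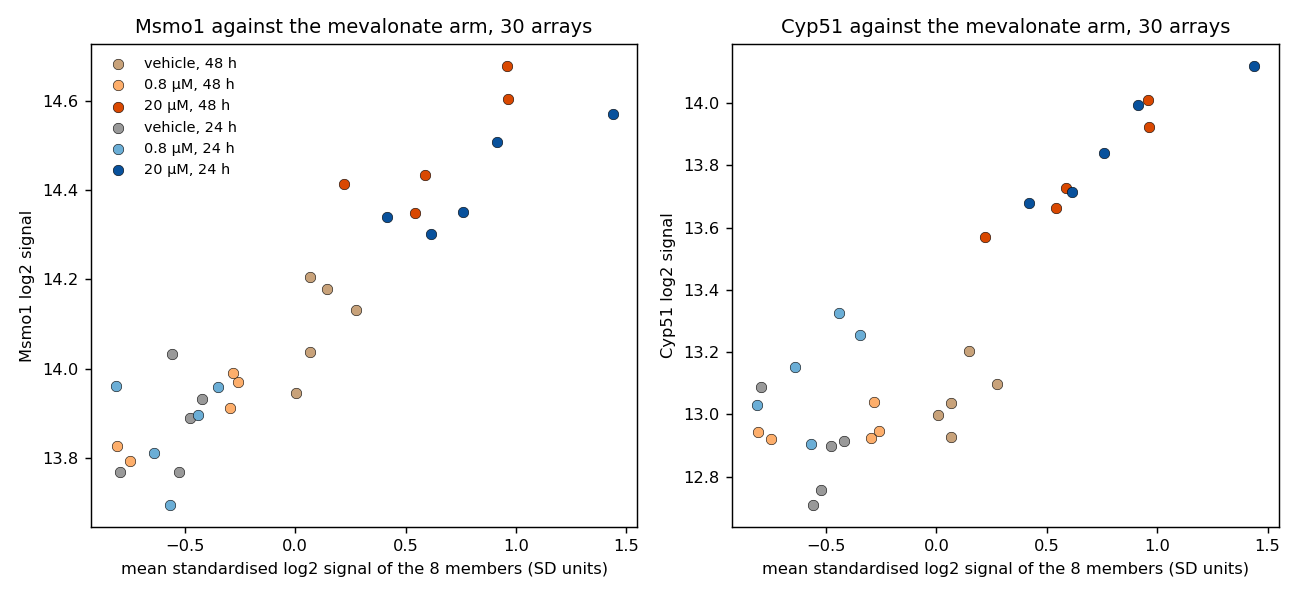
Log2 signal of Msmo1 (left) and Cyp51 (right) on the y axes against the mean standardised signal of the 8 members in SD units (x axis); each point is an array, coloured by dose and time. The 10 arrays at 20 µM have the highest signals of both genes, and on the x axis they run from 0.22 to 1.44, where vehicle arrays reach 0.27.

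Beyond squalene epoxide the pathway was mixed at 20 µM. Of the 10 late sterol enzymes tested, 3 rose and 3 fell at 48 h, and 4 rose and 1 fell at 24 h, with a median log2 change of 0.08 at 48 h and 0.13 at 24 h, where 26.9% and 17.4% of all tested probe sets were called. With median centring 3 rose and 2 fell at 48 h, and 4 rose and 0 fell at 24 h. With quantile normalization 3 rose and 3 fell at 48 h, and 4 rose and 1 fell at 24 h. Cyp51 rose by 0.73 ± 0.09 at 48 h and 1.00 ± 0.09 at 24 h (log2 change ± SE, limma adjusted p = 7.02e-08 and 4.53e-10), and Sc5d by 0.27 ± 0.06 and 0.56 ± 0.06 (adjusted p = 0.000415 and 9.58e-09). Dhcr7, the last reductase before cholesterol, fell by 0.77 on the log2 scale at 48 h (adjusted p = 4.85e-05), with -0.32 at 24 h (adjusted p = 0.12). Hsd17b7, a 3-keto sterol reductase, fell by 0.70 on the log2 scale at 48 h and 0.29 at 24 h by its brighter probe set (adjusted p = 4.72e-08 and 0.0128), but its other probe set was 0.19 at 48 h (adjusted p = 0.0877) and rose by 0.34 at 24 h (adjusted p = 0.00199). The probe sets of Hsd17b7 thus passed the test in opposite directions at 24 h as deposited, but with median centring the brighter one did not pass there. Other probe sets disagreed elsewhere too: a dimmer one of Lss, lanosterol synthase, rose by 2.56 at 48 h and 2.85 at 24 h while the brighter one was at 0.08 and 0.11, and 1 of 3 probe sets of Sc5d passed at neither time. For Nsdhl, both probe sets fell at 48 h (-0.22 for the brighter and -0.66 for the dimmer). At 24 h only its dimmer one, which entered no count, fell (-0.33, adjusted p = 0.0252, beside 0.05, adjusted p = 0.663).

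**Figure D4:**
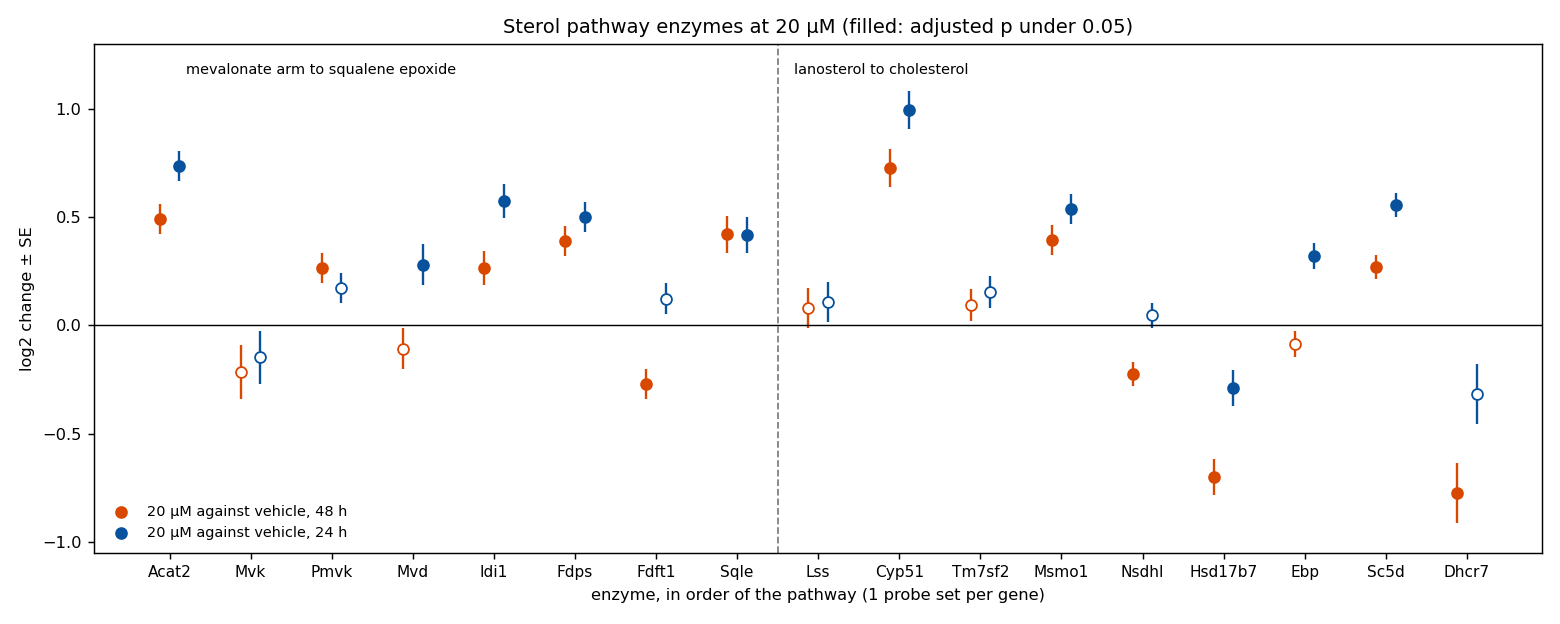
Log2 change at 20 µM against vehicle (y axis, ± SE) of the 8 members and 9 late sterol enzymes in pathway order (x axis), 48 h and 24 h, with 1 probe set per gene, the brightest tested; filled points have an adjusted p under 0.05. Cyp51 stands highest at 1.00 at 24 h, and Dhcr7 lowest at -0.77 at 48 h.

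Genes of sterol sensing and SREBP control moved in both directions. Of 10 tested, 3 rose and 3 fell at 48 h at 20 µM, and 2 rose and 2 fell at 24 h, beside the same 26.9% and 17.4% called over all. Insig1, which holds the SREBP complex in the endoplasmic reticulum and is itself an SREBP target, rose by 0.26 ± 0.05 at 48 h and 0.27 ± 0.05 at 24 h (log2 change ± SE, limma adjusted p = 0.000271 and 0.000451). Insig2, its paralogue, fell by 1.10 on the log2 scale at 48 h and 0.59 at 24 h (adjusted p = 1.24e-10 and 3.32e-05). Npc2, which carries cholesterol out of lysosomes, rose by 0.91 ± 0.06 and 0.31 ± 0.06 at those times (adjusted p = 7.44e-14 and 0.000166). Srebf2, the gene of SREBP-2, did not pass, at 0.10 ± 0.09 and 0.07 ± 0.09 (adjusted p = 0.466 and 0.667). Srebf1 fell by 0.66 on the log2 scale at 48 h and 0.40 at 24 h (adjusted p = 2.92e-05 and 0.0118) by its brighter probe set, at 24 h not with median centring, while the other did not pass, and Mbtps2, a protease that releases SREBPs, rose by 0.42 at 48 h (adjusted p = 8.17e-06).

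Genes of acetyl-CoA supply and of ketone body metabolism were counted together. Of the 5 tested, 4 fell at 48 h and 3 at 24 h at 20 µM, and 0 rose at either time. In either direction, 26.9% and 17.4% of all probe sets were called. The median log2 change of -0.73 at 48 h and -0.41 at 24 h was that of the mitochondrial Acat1. Among the supply genes Acly, Acss2 and Slc25a1, Acly and Acss2 fell at 48 h and only Acly at 24 h. Acly, ATP citrate lyase, which makes cytosolic acetyl-CoA, fell by 0.74 on the log2 scale at 48 h and 0.54 at 24 h (limma adjusted p = 4.82e-07 and 0.000153). Acat1, the mitochondrial thiolase, fell by 0.73 and 0.41 at those times (adjusted p = 1.38e-10 and 1.88e-05), against the rises of 0.49 and 0.74 of the cytosolic Acat2. Bdh1, of ketone body metabolism, fell by 1.53 and 1.11 (adjusted p = 1e-12 and 4.39e-09), and Acss2, acetyl-CoA synthetase, by 0.38 at 48 h (adjusted p = 0.000154), with -0.05 at 24 h (adjusted p = 0.75). The citrate carrier Slc25a1 passed at neither time (-0.0033 at 48 h and -0.06 at 24 h, adjusted p = 0.982 and 0.683). At 0.8 µM and 48 h, 3 of the 5 were also lower, where 1.81% of all tested probe sets were called. They were Acly (-0.41, adjusted p = 0.0262), Acss2 (-0.28, adjusted p = 0.0416) and Bdh1 (-0.57, adjusted p = 0.00335). Over all probe sets, the calls of that comparison were 173 higher and 211 lower. They were 79 and 81 with median centring, and 202 and 252 with quantile normalization. Whether these 3 calls hold under other settings is not reported.

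Among 14 tested genes of the branches that use farnesyl diphosphate, 3 rose and 1 fell at 20 µM at 48 h, and likewise 3 and 1 at 24 h, where 26.9% and 17.4% of all probe sets were called. Without the array titled 2 h, 4 rose and 1 fell at 24 h, and the counts of the other related lists at 24 h stayed as they were. Rabggtb, a subunit of the Rab prenyltransferase, rose by 0.78 ± 0.07 at 48 h and 0.53 ± 0.07 at 24 h (log2 change ± SE, limma adjusted p = 2.79e-10 and 1.42e-06). Pdss2, of ubiquinone side chain synthesis, fell by 0.83 on the log2 scale at 24 h (adjusted p = 0.00219), and Icmt, which methylates prenylated proteins, rose by 0.41 (adjusted p = 0.0329) at 24 h. The call of Icmt was lost without vehicle replicate 3 or 5 or 20 µM replicate 1, 3, 4 or 5, and in a fit of the compared arrays alone. Nus1, of dolichol synthesis, rose by 0.42 at 48 h and 0.33 at 24 h by its brightest probe set (adjusted p = 0.000121 and 0.00381), while another of its probe sets fell by 0.46 and 0.42. Pggt1b was counted as unchanged by its brighter probe set, at 0.20 at 48 h and 0.04 at 24 h (adjusted p = 0.33 and 0.891). Its dimmer one rose by 0.62 and 0.70 (adjusted p = 0.00104 and 0.000448). Of 5 tested genes of sterol-regulated protein degradation, 5 fell at 48 h and 0 at 24 h by limma, beside the shares over all given above. Rnf139 fell by 0.40 on the log2 scale, Ube2g2 by 0.27, Marchf6 by 0.21 and Erlin1 by 0.18 at 48 h (adjusted p = 1.43e-05, 0.0124, 0.00997 and 0.0403). With arrays centred on their medians only 2 of the 5 passed, and with quantile normalization 5 of the 5 did. None of the genes named by rule from these lists gained or lost its call at 24 h, by its brightest probe set, without the array titled 2 h.

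Of the 7 hepatocyte markers, Apob fell by 0.59 on the log2 scale at 48 h and 0.52 at 24 h at 20 µM (limma adjusted p = 4.63e-07 and 9.94e-06) and Fgb by 0.25 at 48 h (adjusted p = 0.0349), and the other 5 passed at neither time. The hepatocyte sum ran from 465800 to 589400 signal units at 20 µM and from 504200 to 625700 in vehicle at 48 h, and from 477100 to 687800 and from 562500 to 715200 at 24 h.

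Markers of other liver cells were mostly dim. Of 5 Kupffer cell markers on the array, Cd68 was 1.44 higher at 20 µM than in vehicle at 48 h (log2 change, limma adjusted p = 8.2e-11), Cd5l fell by 0.46 (adjusted p = 0.0438), and Adgre1 exceeded the 40th percentile of its array on 0 of 30 arrays. Their summed signal ran from 3083 to 3825 at 20 µM and from 1850 to 2678 in vehicle at 48 h, and from 3351 to 3932 and from 2953 to 4240 at 24 h. The sums did not overlap at 48 h, where Acat2, Pmvk, Idi1, Fdps and Sqle were higher, and overlapped at 24 h. Of the 4 tested Kupffer markers only Cd68 was higher at 48 h, beside -0.21 for Cd163 (adjusted p = 0.559) and -0.22 for Clec4f (adjusted p = 0.498), and the list's median change was -0.22. The 5 endothelial markers summed to 1194 to 1739 at 20 µM and 1113 to 2044 in vehicle at 48 h, and to 1585 to 2025 and 2071 to 2477 at 24 h. The endothelial sum was thus lower in every well at 20 µM at 24 h, where Acat2, Mvd, Idi1, Fdps and Sqle were higher, although 0 of the 5 markers passed limma's test. The 5 stellate cell markers, of which Lrat exceeded the 40th percentile on 0 of 30 arrays, summed to 2071 to 2726 at 20 µM and 2012 to 2612 in vehicle at 48 h, and to 1519 to 2770 and 2405 to 2705 at 24 h. The 3 lymphocyte markers stayed between 311.4 and 733.3 in vehicle and 20 µM wells at either time. Of the 3 cholangiocyte markers on the array, Epcam lay between 13.02 and 13.70 on all 30 arrays, Krt7 exceeded the 40th percentile on 0 of 30, and Krt19 fell by 1.28 on the log2 scale at 20 µM and 24 h (adjusted p = 0.00889) at a dim level. The part of these cells in the members' changes was not tested.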

How the data were processed

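RNA of 30 wells was hybridised to one-colour rat arrays. The deposited values are intensity values (signal) per probe set, made with MAS5 per the submitters' processing notes, with no version stated, and each array had a trimmed mean of 1500. There were 31099 probe sets, with 57 controls among them. Here a floor of 16 was set before log2 was taken, and no normalization was added. Probe sets above the 40th percentile of their array on at least 5 arrays were tested (21226). Symbols came from the platform annotation: 20826 probe sets had 1 symbol, 436 several and 9780 were not listed.

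Groups came from the dose and time entries of the labels. limma 3.58.1 in R 4.3.3 fitted 1 mean per group over 30 arrays with a trended eBayes and Benjamini-Hochberg adjustment over all tested probe sets within each of 11 comparisons. The 8 members, the related gene lists and the markers were chosen with earlier results of these data known. Every member probe set is reported. From each related list, up to 4 called genes with the largest change at 20 µM are named, with Srebf2 and Insig1, and the 8 genes most alike in pattern; a listed gene stands by its tested probe set with the highest mean. The other degradation genes and the remaining listed genes were counted, each by that 1 probe set. Other probe sets of listed genes entered no count, and a few were named after their values were seen where probe sets disagreed. Promoter windows came from RefSeq. The procedure was tested on simulated data. The number of arrays limits the precision. Alternatives covered the floor, filter, scaling, spread model, weights, arrays fitted, array order, probe set summary, threshold and leaving out each array.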

Additional observations from a re-analysis of the deposited data

Results flagged for a closer look

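The effect of 20 µM on Fdft1 (probe set 1367839_at) differed between the times, by -0.39 at 48 h minus 24 h on the log2 scale (limma adjusted p = 0.0234, 5 arrays per group). It was the only one of the 11 member probe sets to do so. From 24 h to 48 h this probe set rose by 0.28 in vehicle (limma adjusted p = 0.00785). At 20 µM it changed by -0.11 over that time (adjusted p = 0.431). The 2 doses were not told apart at 48 h (0.04 for 20 against 0.8 µM, adjusted p = 0.766). All 5 arrays at 20 µM lay below all 5 vehicle arrays at 48 h, and at 24 h these groups overlapped. The call of the difference was lost without the vehicle array titled 2 h (adjusted p = 0.0586) and without vehicle replicate 2 at 48 h (0.0513). It was also lost with median centring (0.0722) and without a trend in eBayes (0.0515). The other probe set of Fdft1 gave -0.25 (adjusted p = 0.417).

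Fdft1 (probe set 1389906_at) had 1 array far from the others at 20 µM and 48 h: replicate 3 stood at 11.02, the next at 10.72 and the lowest at 10.61. Its gap was 0.7455 of the group's range, above the 5-sample limit of 0.71. Chance gives such a gap in about 1 in 20 groups, and 1 of 66 groups of member values showed it. Without that array the change against vehicle was -0.30 (adjusted p = 0.0179), past the threshold that the full group missed.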

How the results depend on the processing

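Over 14 other settings, 1619 of 1661 member values kept their direction and their side of the threshold, 20 lost a call, 12 gained one, 0 called values turned sign and 10 uncalled values crossed 0. The count of members at 20 µM against vehicle was 5 to 6 at 48 h and 4 to 7 at 24 h, and with each array left out 5 to 7 and 4 to 7. The rises of Acat2, Fdps and Sqle at both times, and of Idi1 1368878_at at 24 h, held in every setting and with each array left out. So did the rise of Pmvk and the fall of Fdft1 1367839_at, both at 48 h. For 0.8 µM against vehicle at 48 h the count of 1 became 2 with a filter at the 60th percentile, 0 with median centring and 0 at an adjusted p under 0.01, and 0 to 2 with arrays left out. For the difference of the 20 µM effects the count of 1 became 0 with median centring, 0 without a trend in eBayes and 0 at 0.01, and 0 to 1 with arrays left out. For vehicle at 48 h against 24 h the count of 3 became 1 with only the compared arrays and 1 at 0.01, and 2 to 4 with arrays left out. For 20 against 0.8 µM it was 5 to 6 at 48 h and 4 to 8 at 24 h over the settings, and 5 to 6 and 4 to 7 with arrays left out. The cause was not tested. Over all probe sets, the calls at 0.8 µM against vehicle were 173 higher and 211 lower at 48 h. They were 79 and 81 with median centring, and 202 and 252 with quantile normalization. Icmt at 24 h and Erlin1 at 48 h lost their calls in 8 and 12 of the repeats, and Hsd17b7 and Srebf1 at 24 h with median centring. The labels give no replicate numbers and name no pairs of wells, so the main fit was not paired. Runs of 6 array numbers, each with 1 array of every group, were fitted as a block instead. No label says what a run stands for. That fit left the member counts within these ranges and gained the call of Mvd for 20 against 0.8 µM at 24 h (limma adjusted p = 0.0437). MAS5 values keep no probe-level data, so background and probe weighting could not be varied.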
